A study of Mus musculus with 27 samples.

Results

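Complement transcripts were followed across cultured primary mouse cells, namely microglia, hepatocytes and macrophages grown from bone marrow (BMDM), using 9 genes chosen by symbol from the 55487 gene identifiers of the count and TPM (a level scaled by gene length and library size) tables. They are the 3 chains of C1q (C1qa, C1qb, C1qc), the central component C3, the C4 gene C4b, complement factor B (Cfb), properdin (Cfp) and the receptors C3ar1 and C5ar1. All 9 were found, each under 1 identifier. Each cell type was treated for 24 h with ethanol as vehicle, with 10 µM 24(S)-saringosterol, a plant and algal sterol, or with 1 µM of a synthetic compound that the labels spell GW3596, GW3964 and GW3965 and that is called GW here. The last of these names belongs to a compound that activates LXR, the liver X receptors, which are nuclear receptors for oxidised sterols. There were 3 libraries in each of the 9 groups, 27 in all, holding 30295862 to 41040268 counts each. The labels name no genotype, strain, sex or age. Microglia came from mixed glia by shaking, BMDM from marrow cells kept in M-CSF, and hepatocytes were grown on collagen-coated plates. Microglia and BMDM were treated in serum-free medium with M-CSF and insulin, hepatocytes in Williams' E medium without them, so cell type and medium cannot be told apart. The labels do not say whether replicates came from separate animals or cultures, so p-values measure the spread between these libraries, which may be technical.

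Complement is a cascade of plasma and cell-surface proteins that tags particles for uptake, attracts leukocytes and forms membrane pores. The classical route starts with C1q, built from 3 kinds of chain, and runs through C4 to C3; the lectin route reaches C4 through mannose-binding lectins; the alternative route amplifies C3 cleavage with factor B, and properdin stabilises its convertase. The fragments C3a and C5a signal through C3ar1 and C5ar1. The liver is the main source of plasma complement, whereas tissue macrophages and microglia are the main source of C1q, which in the brain also tags synapses.

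All 9 genes lie on the minus strand of the mouse genome (build GRCm38), with the same start and end in GENCODE M21 as in the deposited tables. The 3 C1q genes lie side by side on chromosome 4, C1qb at 136880129-136886187, C1qc at 136889804-136893065 and C1qa at 136895917-136898803, with 3616 and 2851 bases between neighbours. C4b (34728380-34743882) and Cfb (34856374-34862518) lie 112491 bases apart on chromosome 17, and C3 lies on the same chromosome at 57203970-57228136. Cfp lies on chromosome X at 20925454-20931555, C3ar1 on chromosome 6 at 122847138-122856161 and C5ar1 on chromosome 7 at 16246743-16259540. Of the exon bases of Cfb, 79.5% are also exon bases of the overlapping gene Gm20547, which had 0 counts in all 27 libraries. How reads that fit both genes were counted is not given in the sources used here, so the level of Cfb is uncertain, as is that of C4b beside its near-identical copy C4a.

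RefSeq upstream windows (GRCm38.p6) were on hand for 6 of the 9 genes. The windows of C1qb, C1qc and Cfp are printed because these genes were raised together in microglia, and that of C3 because it fell in the same libraries. Each is read 5′ to 3′ on the gene's strand, from chr4:136886201-136886450 (C1qb), chr4:136893066-136893164 (C1qc, only the stretch outside the annotated gene), chrX:20931556-20931805 (Cfp) and chr17:57228137-57228386 (C3). Capitals mark matches on either strand to AGGTCA, the half-site bound by many nuclear receptors, or to GAGGAA, an ETS-type core.
C1qb: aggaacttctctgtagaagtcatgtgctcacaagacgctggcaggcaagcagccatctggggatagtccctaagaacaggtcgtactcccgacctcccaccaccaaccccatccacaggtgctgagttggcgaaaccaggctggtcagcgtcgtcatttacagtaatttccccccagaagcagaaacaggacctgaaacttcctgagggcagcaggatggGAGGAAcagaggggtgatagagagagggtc
C1qc: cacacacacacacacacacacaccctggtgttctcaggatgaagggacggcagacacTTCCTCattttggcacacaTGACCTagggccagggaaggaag
Cfp: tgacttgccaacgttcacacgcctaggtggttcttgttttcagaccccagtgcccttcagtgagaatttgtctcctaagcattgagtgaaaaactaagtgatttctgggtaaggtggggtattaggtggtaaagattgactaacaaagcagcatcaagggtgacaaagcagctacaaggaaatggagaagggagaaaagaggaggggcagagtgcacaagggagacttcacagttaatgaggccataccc
C3: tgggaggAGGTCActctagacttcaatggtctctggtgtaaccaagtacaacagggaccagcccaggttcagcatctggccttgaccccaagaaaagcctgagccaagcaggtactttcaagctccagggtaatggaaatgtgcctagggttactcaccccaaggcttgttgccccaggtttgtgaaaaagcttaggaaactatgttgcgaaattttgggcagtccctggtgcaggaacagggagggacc
In the 250 bases before the transcription start, AGGTCA was found in C1qc (174 to 169 bases before the start, minus strand of the gene) and in C3 (243 to 238 bases before it), against 14% of 32851 RefSeq windows of the same length. GAGGAA was found in C1qb (30 to 25 bases before the start) and in C1qc (193 to 188, minus strand of the gene), against 23.3% of all windows. The interferon-type element (GAAA, 2 bases of any kind, GAAA), searched on both strands, was in 2.98% of windows and in 0 of the 6. These are matches of letters, not measured sites.

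The cell types carried different sets of complement genes in the vehicle libraries. C1q, properdin and both anaphylatoxin receptors were abundant in microglia and BMDM, and C3, C4b and Cfb were highest in hepatocytes. In a fit over all libraries, 8 of the 9 genes were higher in microglia than in BMDM, against 46.5% of 18979 genes called in either direction. Against hepatocytes, 6 were higher and 3 lower in microglia, and the same held for BMDM; of all genes, 73.5% differed between hepatocytes and microglia and 75.2% between hepatocytes and BMDM.

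**Figure D1:**
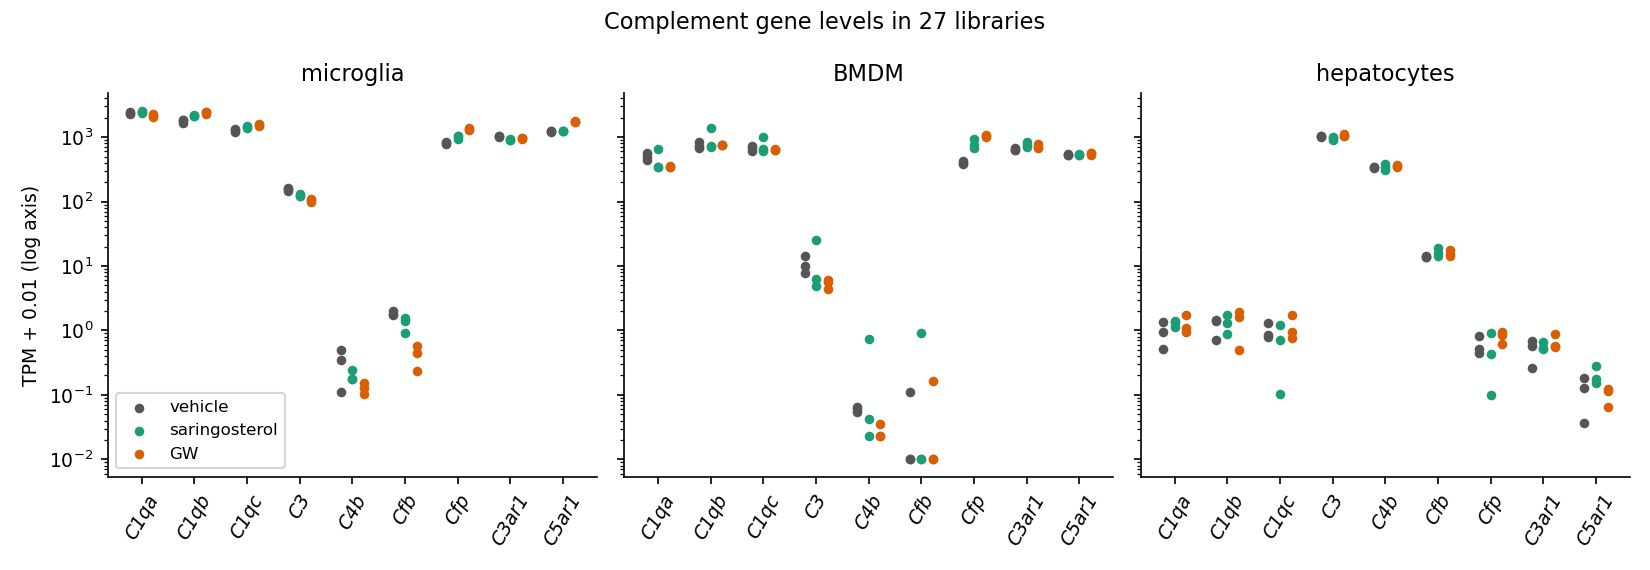
TPM of the 9 complement genes in each of the 27 libraries, by cell type; each point is 1 library, coloured by treatment, on a log axis after adding 0.01. The C1q chains, Cfp, C3ar1 and C5ar1 sit at 342 TPM or more in every microglial and BMDM library and at 1.94 TPM or less in every hepatocyte library, while C4b and Cfb are highest in hepatocytes.

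C1qa, which encodes the A chain of C1q, measured 2254, 2443 and 2394 TPM in the 3 vehicle libraries of microglia, 577, 436 and 496 in those of BMDM and 1.32, 0.506 and 0.949 in those of hepatocytes. The groups did not overlap, and microglia exceeded BMDM by 2.13 ± 0.178 (SE) in log2 units, with an edgeR adjusted p = 5.54e-09. C1qb, the B chain, stood at 1633, 1817 and 1828 TPM in microglia and 830, 669 and 718 TPM in BMDM, a log2 difference of 1.15 ± 0.185 (edgeR adjusted p = 3.40e-05). C1qc, the C chain, stood at 1187, 1288 and 1340 TPM against 733, 617 and 683 TPM, a log2 difference of 0.81 ± 0.159 (edgeR adjusted p = 0.000308). The order of the chains thus differed between the cell types: C1qa was the most abundant chain in all 3 microglial vehicle libraries and the least abundant in all 3 of BMDM.

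C3 was highest in hepatocytes and lowest in BMDM. Hepatocytes held 1037, 990 and 1059 TPM, microglia 145, 157 and 163, and BMDM 9.93, 7.66 and 14.4, with no overlap. Microglia exceeded BMDM 13.5-fold (log2 3.75 ± 0.389, edgeR adjusted p = 1.27e-07) and hepatocytes exceeded microglia 5.34-fold (log2 2.42 ± 0.351, edgeR adjusted p = 3.89e-06). C4b, the C4 component through which the classical and lectin routes reach C3, stood at 337, 343 and 345 TPM in hepatocytes, 0.101, 0.335 and 0.48 in microglia and 0.0505, 0.0436 and 0.0552 in BMDM, the last from 3 to 4 counts a library. Cfb, the protease of the alternative route, stood at 14.5, 13.6 and 13.7 TPM in hepatocytes, 1.76, 1.73 and 1.96 in microglia and 0.102, 0 and 0 in BMDM. For C4b and Cfb in BMDM the counts were at or near the 3 counts (0.0731 to 0.099 CPM, counts scaled to the library total) that a count of 0 allows, and no fold is given. C4b did not pass between microglia and BMDM (edgeR adjusted p = 0.0510, and 0.00780 with DESeq2).

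Cfp, which encodes properdin, stood at 784, 809 and 846 TPM in microglia and at 390, 400 and 427 in BMDM (log2 difference 0.90 ± 0.106, edgeR adjusted p = 3.39e-07). C5ar1, the C5a receptor, stood at 1262, 1246 and 1211 TPM against 542, 532 and 538 (1.10 ± 0.0517, edgeR adjusted p = 1.43e-18). C3ar1, the C3a receptor, stood at 1034, 1001 and 1041 TPM against 629, 642 and 692 (0.55 ± 0.0784, edgeR adjusted p = 1.88e-06). None of these groups overlapped. In the hepatocyte vehicle libraries these 3 genes stayed between 0.0267 and 0.823 TPM.

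The culture labels matched their markers. Macrophage markers (10 genes) summed to 41840 to 46230 CPM in microglia, 31090 to 39720 in BMDM and 334 to 380 in hepatocytes. In hepatocytes nearly all of that was Cd68, and the other 9 genes summed to 5.58 to 10.7 CPM. Kupffer cell markers (6 genes) summed to 1.72 to 4.34 CPM in hepatocytes. In the vehicle libraries Timd4 and Cd163 were at 0, but the other markers of the list still summed to 1.82 to 3.31 CPM. C1qa, C1qb and C1qc reads in hepatocytes (2 to 38 counts a library) thus stood beside a low macrophage signal; its part in them was not tested. Hepatocyte markers (9 genes) summed to at most 0.141 CPM in microglia and at most 1.49 CPM in BMDM. In microglia, astrocyte markers (7 genes) summed to 38.2 to 40.4 CPM with vehicle, 25.4 to 30.9 with saringosterol and 44.4 to 50.3 with GW. The same list was higher in hepatocytes, at 94.7 to 133.4 CPM. In BMDM its mean was 20.4 CPM with vehicle, 11.85 with saringosterol and 21.36 with GW, so it was also lower with saringosterol there. The list was thus not limited to astrocytes, and whether the astrocyte share of the microglial cultures changed was not tested. In bulk RNA, fewer cells of a type and less RNA per cell cannot be told apart.

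Saringosterol moved 5 of the 9 genes in microglia. C1qb, C1qc and Cfp rose, by 22.7%, 12.6% and 23.9%, and C3 and C3ar1 fell, by 19.2% and 11.9%. Of the 16065 genes tested in microglia, 4.19% rose and 6.66% fell, beside 3 and 2 of the 9; their median log2 change was 0.01, that of all genes -0.00306. GW moved 6 of the 9: C1qb (43.1%), C1qc (25.9%), Cfp (72.4%) and C5ar1 (47.8%) rose, and C3 (29.6%) and Cfb (76.1%) fell, against 13.4% of all genes rising and 15.2% falling. Here the median of the 9 was -0.03 and that of all genes -0.0054. Both contrasts share the 3 vehicle libraries. In a fit over all 27 libraries, the 5 saringosterol calls were lost (edgeR adjusted p = 0.114 to 0.752), as were the GW calls of C1qc (0.156) and C3 (0.369). As a check of the treatments, all 6 genes of a list of known LXR targets (Abca1, Abcg1, Srebf1, Mylip, Nr1h3 and Scd1) rose in microglia with each compound. In BMDM the list summed to 1210 to 1254 CPM with vehicle, 2776 to 2879 with saringosterol and 3913 to 4287 with GW. Nr1h3 did not pass there with GW in a fit without BMDM saringosterol replicate 3 (log2 0.12 ± 0.0558, edgeR adjusted p = 0.173).

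**Figure D2:**
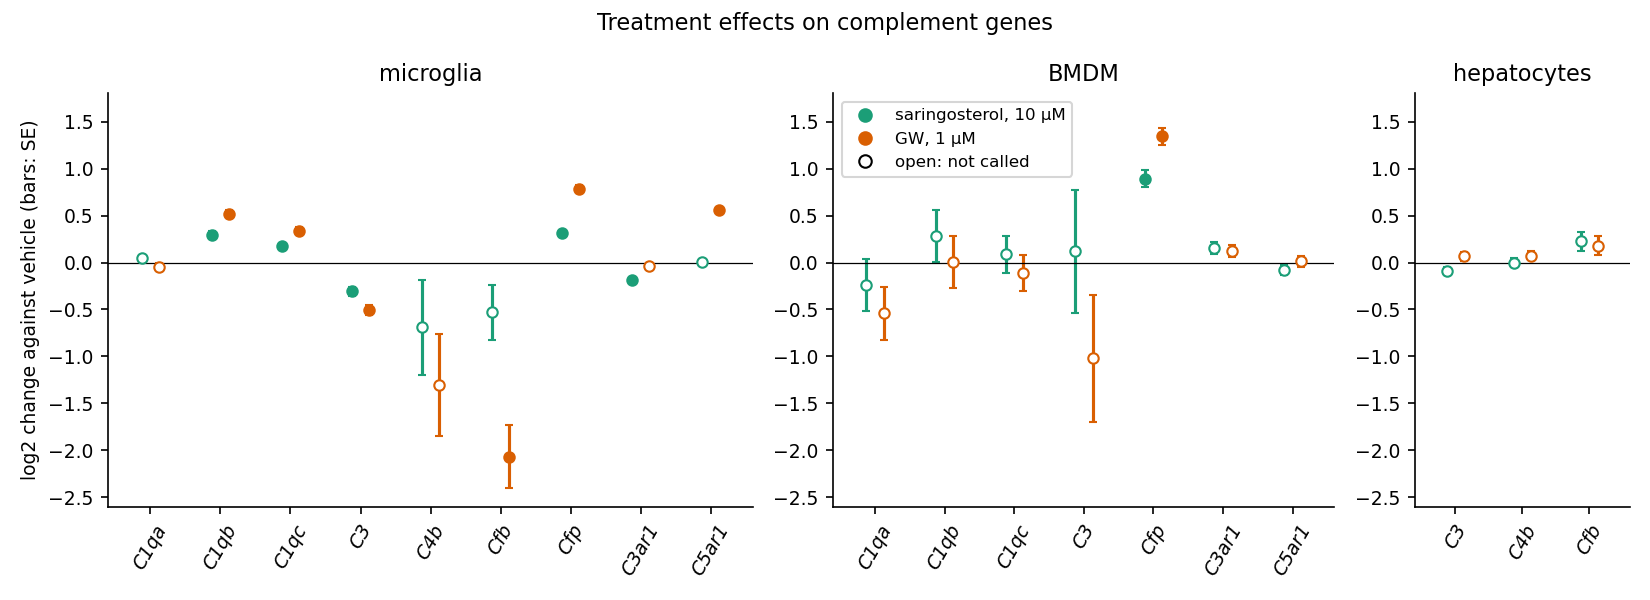
Log2 change against vehicle (points, with SE as bars) of the tested complement genes in microglia, BMDM and hepatocytes, for 10 µM saringosterol and 1 µM GW; filled points passed an edgeR adjusted p of 0.05. In hepatocytes only C3, C4b and Cfb are drawn. Cfp is the gene with filled points above 0 for both compounds in microglia and in BMDM, and no hepatocyte point is filled.

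Properdin rose most of the 9 genes in microglia and in BMDM with GW. Cfp in microglia went from 784, 809 and 846 TPM with vehicle to 1043, 1056 and 950 with saringosterol and 1294, 1386 and 1337 with GW. The 3 groups did not overlap, and GW lay highest. The log2 change was 0.31 ± 0.0403 with saringosterol (edgeR adjusted p = 1.95e-06) and 0.79 ± 0.0404 with GW (edgeR adjusted p = 1.77e-15). In BMDM, Cfp went from 390, 400 and 427 TPM to 689, 746 and 946 with saringosterol and to 1000.4, 1053 and 1088 with GW, again without overlap. There the log2 change was 0.89 ± 0.0914 with saringosterol (edgeR adjusted p = 5.13e-05) and 1.35 ± 0.0922 with GW (edgeR adjusted p = 7.17e-07). In hepatocytes Cfp stayed between 0.0901 and 0.94 TPM.

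The response of Cfp was tested between cell types in the fit over all libraries. The GW response was smaller in microglia than in BMDM by 0.57 ± 0.149 in log2 units (edgeR adjusted p = 0.0170), and the saringosterol response by 0.59 ± 0.149 (edgeR adjusted p = 0.0434). The saringosterol difference did not pass when any 1 of 8 libraries was left out (adjusted p 0.0567 to 0.134), namely each microglial saringosterol and vehicle library and BMDM vehicle replicates 1 and 2, nor without a filter on low counts (0.0651). The GW difference was lost without BMDM vehicle replicate 1 (0.0524) or microglial vehicle replicate 3 (0.0517). In these contrasts, 2.01% (saringosterol) and 9.71% (GW) of 18979 genes differed between microglia and BMDM.

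**Figure D3:**
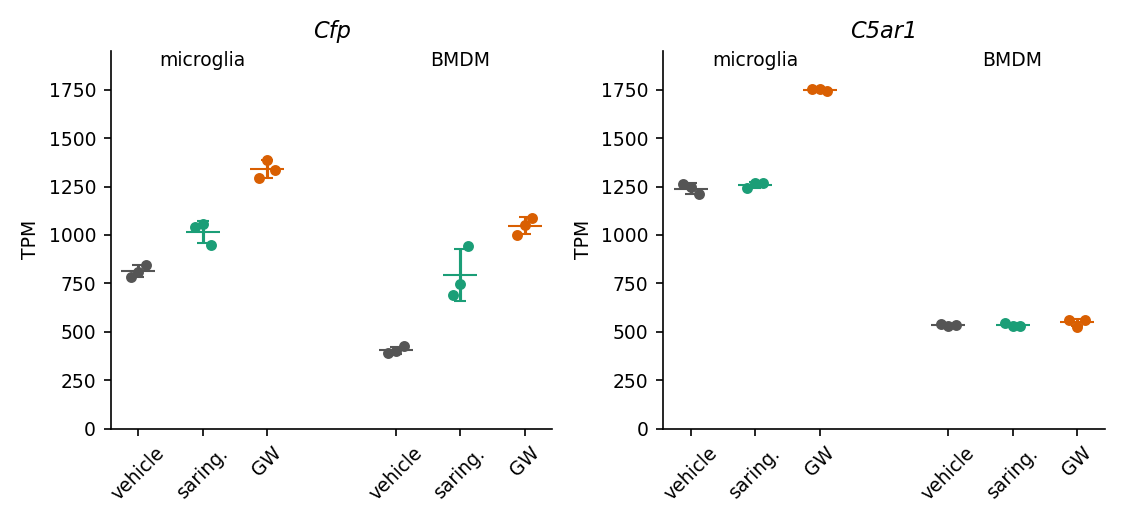
TPM of Cfp and C5ar1 per library in microglia and BMDM, with the mean and SD of each group of 3. Cfp lies higher with both compounds in both cell types; C5ar1 lies at 1745 to 1753 TPM in GW-treated microglia and at 1268 TPM or less in every other library shown.

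The anaphylatoxin receptors separated the compounds as dosed. C5ar1 in microglia was 1262, 1246 and 1211 TPM with vehicle, 1242, 1268 and 1267 with saringosterol and 1750, 1753 and 1745 with GW. The GW libraries lay above all others, whereas vehicle and saringosterol overlapped. The log2 change was 0.56 ± 0.0313 with GW (edgeR adjusted p = 4.77e-15) and 0.01 ± 0.0312 with saringosterol (interval of ± 2 SE -0.0519 to 0.0729, edgeR adjusted p = 0.902). In BMDM, C5ar1 stayed at 528 to 561 TPM in all 9 libraries, and the GW response exceeded that of BMDM by 0.54 ± 0.0722 in microglia (edgeR adjusted p = 3.52e-06).

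C3ar1 showed the other pattern. In microglia it was 1034, 1001 and 1041 TPM with vehicle, 933, 899 and 900 with saringosterol and 934, 976 and 961 with GW. All 6 treated libraries lay below the vehicle libraries in TPM, but on counts scaled by TMM only the saringosterol change passed (log2 -0.18 ± 0.0323, edgeR adjusted p = 0.000147), and the GW change did not (-0.03 ± 0.0323, edgeR adjusted p = 0.497). In BMDM it was 629, 642 and 692 TPM with vehicle, 708, 758 and 843 with saringosterol and 691, 716 and 772 with GW, and neither change passed (edgeR adjusted p = 0.127 and 0.237). The saringosterol response of C3ar1 was lower in microglia than in BMDM by 0.35 ± 0.111 (edgeR adjusted p = 0.0980), which passed with DESeq2 (0.00197), with limma-voom (0.00172) and in a fit over the 18 libraries of both cell types (0.00822).

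The C1q chains did not move as a unit in microglia. C1qb rose from 1633, 1817 and 1828 TPM to 2167, 2226 and 2138 with saringosterol (log2 0.29 ± 0.0404, edgeR adjusted p = 5.32e-06) and to 2310, 2492 and 2418 with GW (0.52 ± 0.0404, edgeR adjusted p = 3.25e-11). C1qc rose from 1187, 1288 and 1340 TPM to 1423, 1509 and 1402 with saringosterol (0.17 ± 0.0415, edgeR adjusted p = 0.00632) and to 1472, 1592 and 1526 with GW (0.33 ± 0.0416, edgeR adjusted p = 4.55e-07). The saringosterol call of C1qc was lost without saringosterol replicate 2 (0.0532) or vehicle replicate 1 (0.0574). C1qa, at 2254, 2443 and 2394 TPM with vehicle, was 2384, 2558 and 2434 with saringosterol and 2091, 2280 and 2184 with GW. All of these C1qa groups overlapped with vehicle, and neither change passed (log2 0.04 ± 0.0379 and -0.05 ± 0.0379, edgeR adjusted p = 0.552 and 0.394).

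The ratio of C1qa to C1qb, formed within each library from TPM, makes this visible and does not depend on library scaling. In microglia it was 1.34 ± 0.0356 (SD, n = 3) with vehicle, 1.13 ± 0.0258 with saringosterol and 0.908 ± 0.00624 with GW. In BMDM it was 0.679 ± 0.0242 with vehicle, 0.477 ± 0.0108 with saringosterol and 0.465 ± 0.00243 with GW. Neither treated group overlapped with vehicle in either cell type, and each exact permutation test of 3 against 3 libraries gave p = 0.1, the smallest this design allows (two-sided; 12 such tests were made over 3 ratios, and adjusted values cannot be lower). The ratio of C1qa to C1qc moved the same way without overlap, from 1.86 ± 0.0636 to 1.70 ± 0.0311 and 1.43 ± 0.00642 in microglia and from 0.740 ± 0.0425 to 0.581 ± 0.0659 and 0.551 ± 0.0189 in BMDM. The ratio of C1qb to C1qc was higher without overlap in microglia, from 1.38 ± 0.0239 to 1.51 ± 0.0281 with saringosterol and 1.57 ± 0.0105 with GW, and in BMDM with GW, from 1.09 ± 0.0417 to 1.18 ± 0.0369. With saringosterol in BMDM it overlapped with vehicle (1.11 to 1.38 against 1.05 to 1.13, exact permutation p = 0.2). A ratio within a library shows unequal change of the chains, not which of them was constant.

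**Figure D4:**
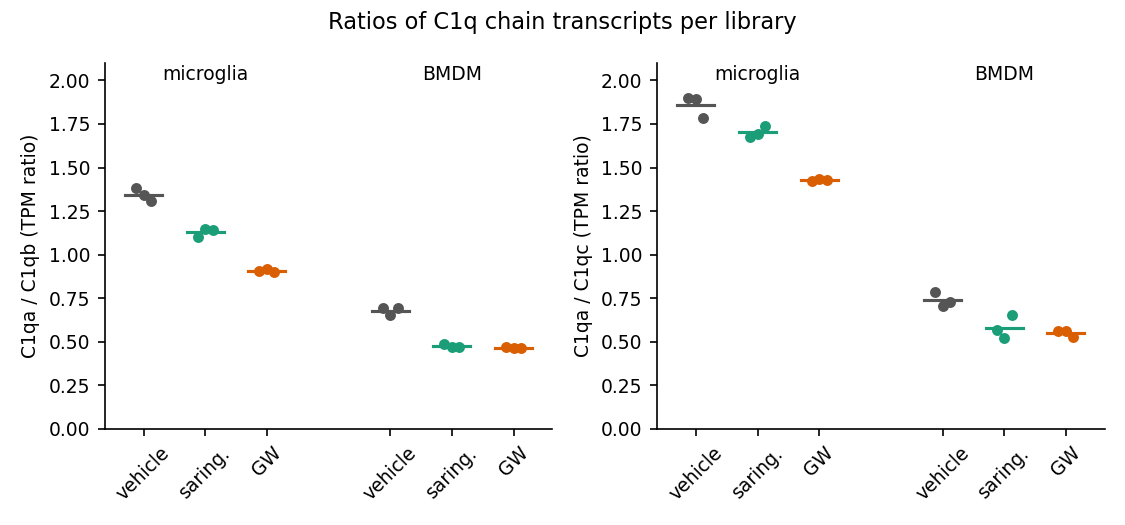
Ratio of C1qa to C1qb and of C1qa to C1qc, from TPM, in each library (points) with the group mean (line). In microglia the C1qa to C1qb ratio steps from 1.31-1.38 with vehicle to 1.10-1.15 with saringosterol and 0.903-0.915 with GW; in BMDM it is 0.651-0.695 with vehicle and at most 0.490 with either compound.

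C3 and Cfb fell in GW-treated microglia. C3 was 145, 157 and 163 TPM with vehicle, 121, 133 and 124 with saringosterol and 97.1, 107 and 109 with GW, 3 groups without overlap. The log2 change was -0.31 ± 0.0479 with saringosterol (edgeR adjusted p = 4.38e-05) and -0.51 ± 0.0482 with GW (edgeR adjusted p = 3.89e-09). Cfb was 1.76, 1.73 and 1.96 TPM with vehicle, 0.898, 1.4 and 1.53 with saringosterol and 0.227, 0.440 and 0.567 with GW, from 8 to 71 counts a library. Its GW change was -2.07 ± 0.334 (edgeR adjusted p = 1.16e-05), while with saringosterol it was -0.53 ± 0.293 (edgeR adjusted p = 0.303), although those libraries too lay below all vehicle libraries. C4b, at 0.0937 to 0.48 TPM in all microglial libraries, did not pass with either compound (edgeR adjusted p = 0.471 with saringosterol and 0.0725 with GW, the latter 0.0134 without vehicle replicate 1). A list of 14 interferon-stimulated genes, chosen with earlier results known, moved with C3: its sum was 1974 to 2244 CPM with vehicle, 1146 to 1183 with saringosterol and 628 to 831 with GW. Its part in the fall of C3 and Cfb was not tested.

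The compounds were compared directly, at doses that differ (10 and 1 µM). In microglia 7 of the 9 genes differed, against 25.5% of all genes. C1qb, C1qc, Cfp, C3ar1 and C5ar1 were lower with saringosterol than with GW, by log2 differences from -0.15 (C3ar1) to -0.55 (C5ar1), and C3 (0.20 ± 0.0483) and Cfb (1.54 ± 0.342) were higher. C1qa missed the threshold at 0.09 ± 0.0379 (interval 0.0163 to 0.168, edgeR adjusted p = 0.0757). In BMDM only Cfp differed, at -0.45 ± 0.0906 (edgeR adjusted p = 0.00649), against 9.33% of all genes.

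In BMDM, 7 genes were tested, since C4b and Cfb were too low. Cfp was the only one called with either compound; among all 15416 genes 5.53% rose and 5.12% fell with saringosterol, and 5.66% rose and 4.76% fell with GW. The libraries of the saringosterol group were unlike each other. Replicate 3 held 664 TPM of C1qa, 1408 of C1qb, 1018 of C1qc and 25.5 of C3, each the highest of the 9 BMDM libraries, whereas replicates 1 and 2 held 344 and 342, 702 and 727, 607 and 653, and 4.94 and 6.20 TPM. It also held 56 counts of C4b and 35 of Cfb, where the other 8 BMDM libraries held at most 4 and 6. The 14 interferon-stimulated genes summed to 938 CPM in that library, against 152 and 169 in the other saringosterol libraries, 361 to 551 with vehicle and 195 to 236 with GW. Its C1qa to C1qb ratio of 0.472 lay between those of replicates 1 and 2 (0.490 and 0.470).

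**Figure D5:**
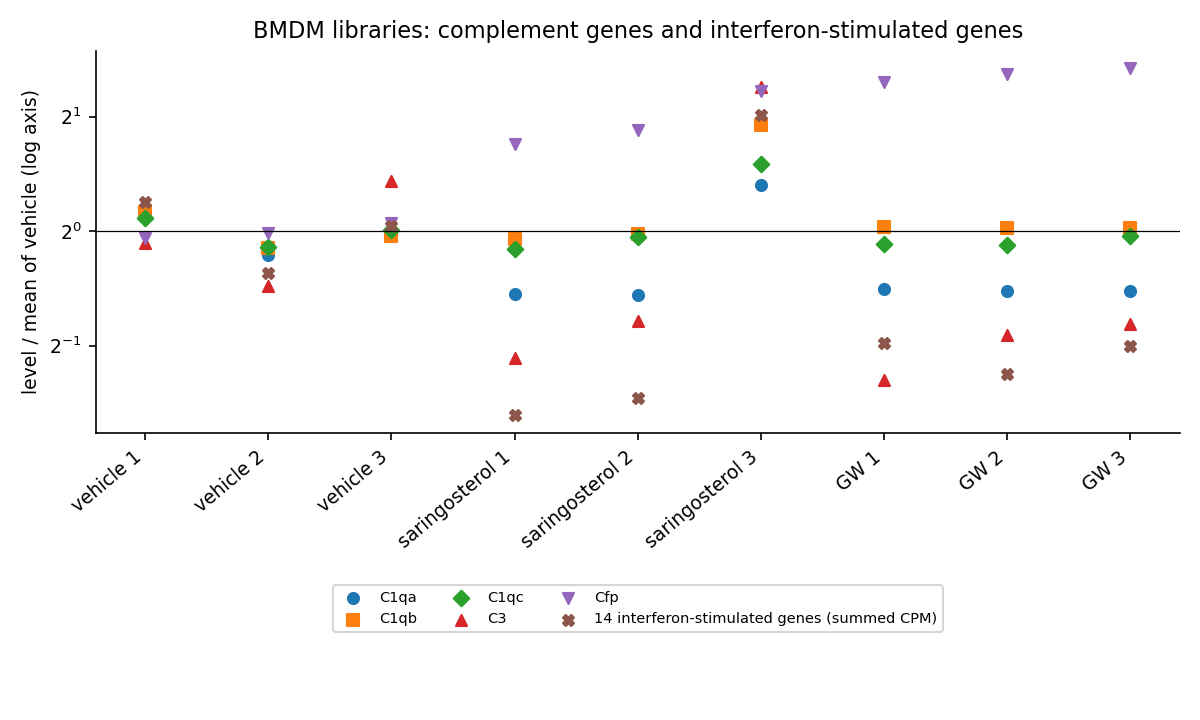
Level of 5 complement genes (TPM) and of the summed interferon-stimulated list (CPM) in each BMDM library, divided by the mean of the 3 vehicle libraries, on a log axis. Saringosterol replicate 3 is above the vehicle mean for every gene drawn and for the list, while C1qa, C3 and the list are below it in the other 2 saringosterol libraries and in all 3 GW libraries.

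Without that library, both compounds gave the same 3 calls in BMDM. The library had been singled out by levels that included its own C1qa and C3. Leaving it out therefore lowers their saringosterol changes by construction, and these calls are no independent test. C1qa fell with saringosterol (log2 -0.63, edgeR adjusted p = 4.07e-05) and with GW (-0.54, 3.80e-05), from 577, 436 and 496 TPM with vehicle to 344 and 342 TPM and to 354, 350 and 349 TPM. C3 fell with saringosterol (-1.01, edgeR adjusted p = 0.0496) and with GW (-1.02, 0.0204), from 9.93, 7.66 and 14.4 TPM to 4.94 and 6.20 TPM and to 4.33, 5.70 and 6.07 TPM. Cfp rose with both (0.75 and 1.35, edgeR adjusted p = 4.33e-10 and 2.43e-16). Of 15873 genes then tested, 4.45% rose and 6.02% fell with saringosterol, and 7.94% rose and 7.81% fell with GW. With all 9 libraries, C1qa (-0.24 ± 0.277 and -0.54 ± 0.278, edgeR adjusted p = 0.667 and 0.297) and C3 (0.12 ± 0.653 and -1.02 ± 0.675, 0.938 and 0.422) did not pass. The GW changes of C1qa and C3 were thus nearly the same in both fits. Only their SE fell without saringosterol replicate 3, to 0.0739 for C1qa and 0.232 for C3. C1qb and C1qc did not pass in either set. In saringosterol replicate 3 the low ratio stood beside a C1qa level above every vehicle library and a C1qb level of 1408 TPM, against 669 to 830 with vehicle.

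Hepatocytes expressed the plasma components, and none of the 8 genes tested there was called with either compound by edgeR, against 0.888% of 16098 genes rising and 1.02% falling with saringosterol and 0.721% and 0.385% with GW. DESeq2 and limma-voom called 0 as well; at an unadjusted p under 0.05 there were 2 with saringosterol (C3 and Cfb) and 0 with GW. C3 was 1037, 990 and 1059 TPM with vehicle, 918, 960 and 1023 with saringosterol and 1042, 1054 and 1118 with GW. The groups of C3 overlapped, and its log2 change was -0.09 ± 0.0433 with saringosterol (edgeR adjusted p = 0.294) and 0.06 ± 0.0433 with GW (0.773). Saringosterol against GW gave -0.16 ± 0.0433 (edgeR adjusted p = 0.0566), which passed with DESeq2 (0.0250) and limma-voom (0.0292); of all genes 1.96% differed there.

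C4b in hepatocytes was 337, 343 and 345 TPM with vehicle, 307, 343 and 377 with saringosterol and 348, 353 and 372 with GW. Its log2 change was -0.000238 ± 0.0478 (interval -0.0958 to 0.0954) with saringosterol and 0.07 ± 0.0478 (-0.0229 to 0.168) with GW. Cfb was 14.5, 13.6 and 13.7 TPM, 15.7, 18.9 and 14.3 TPM, and 14.4, 15.3 and 17.5 TPM in the same order, with changes of 0.22 ± 0.105 and 0.18 ± 0.105 (edgeR adjusted p = 0.286 and 0.719). The 6 remaining genes lay between 0.0267 and 1.94 TPM in every hepatocyte library, too low for a small change to be detectable at this depth. In the LXR list, 4 of 6 genes rose in hepatocytes with GW, where the list summed to 3762 to 4383 CPM; the sum was 1107 to 1162 CPM with saringosterol and 1133 to 1225 CPM with vehicle.

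Differences in response between hepatocytes and the other cell types were called for 0 of the 9 genes. For saringosterol 1.18% of all genes differed between microglia and hepatocytes and 10.1% between BMDM and hepatocytes, and for GW 8.69% and 4.74%. In the order just given, 0, 2, 1 and 0 members had an unadjusted p under 0.05, DESeq2 called 0, 1, 0 and 1, and limma-voom 0, 0, 1 and 0. These contrasts had wide errors: the GW response of C3 was lower in microglia than in hepatocytes by 0.55 ± 0.473 in the fit over all libraries (edgeR adjusted p = 0.600), and passed (edgeR adjusted p = 1.08e-06) in a fit over the 18 libraries of the pair, as did Cfb (log2 -2.23, 1.26e-06).

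The rest of the pathway was taken from a list of 57 complement genes, 48 of them other than the 9. In microglia 21 of the 48 were tested, and saringosterol raised 1 (Calr, a C1q-binding chaperone, 0.26 ± 0.0321) and lowered 5, among them Masp1 (-0.80 ± 0.210), a lectin-route protease, C2 (-0.48 ± 0.134), which pairs with C4b, and C1ra (-0.32 ± 0.101), the protease carried by C1q; of all genes 4.19% rose and 6.66% fell. GW raised 6 and lowered 4, with Cfhr2 (1.09 ± 0.417, edgeR adjusted p = 0.04999), Masp1 (-1.02 ± 0.215) and Calr (0.82 ± 0.0322) among the largest; of all genes 13.4% rose and 15.2% fell, the latter near the share of list genes that fell. DESeq2 called 8 with saringosterol and 9 with GW, and limma-voom 7 and 10. With GW, Cfhr2 was called by limma-voom but not by DESeq2. The median change of the tested list genes was -0.13 with saringosterol and 0.10 with GW.

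Subunits of the complement receptor integrins fell in BMDM. Of 22 list genes tested there, saringosterol lowered 3, Itgam (-0.61 ± 0.131), Itgb2 (-0.45 ± 0.0670) and Itgax (-0.43 ± 0.101), the subunits of CR3 and CR4, and raised 0, against 5.12% of all genes falling and 5.53% rising. DESeq2 and limma-voom called the same 3. GW lowered Itgam (-0.74 ± 0.131) and Itgax (-0.61 ± 0.101) and raised Colec12 (0.24 ± 0.0714), against 4.76% of all genes falling and 5.66% rising; Itgb2 was not called with GW. In microglia, Itgam fell with saringosterol (-0.19 ± 0.0448) and with GW (-0.34 ± 0.0450), and Itgax fell with GW (-0.70 ± 0.0510). Itgb2 fell there with saringosterol (-0.26 ± 0.0338) and rose with GW (0.15 ± 0.0338). In BMDM, Itgam stood at 71.9-77.5 TPM with vehicle, 44.8-65.0 with saringosterol and 42.0-48.9 with GW. Other markers moved beside them: neutrophil markers (5 genes) summed to 39.4 to 51.6 CPM with vehicle, 31.1 to 39.2 with saringosterol and 26.3 to 27.6 with GW, and 3 of the 4 tested were called lower with GW by edgeR. Ly6g, a defining neutrophil marker, was at 0 in all 3 GW libraries and at most 0.334 TPM in the other BMDM libraries. Macrophage markers summed to 37950 to 39720 CPM with vehicle, 31090 to 32840 with saringosterol and 36760 to 38140 with GW. In microglia the neutrophil markers summed to 1.58 to 3.55 CPM. The part of these markers in the fall of the integrins was not tested. In hepatocytes 36 of the 48 were tested and edgeR called 0 with either compound; DESeq2 called 2 with saringosterol and 1 with GW, limma-voom 0 and 2, and 6 with each compound had an unadjusted p under 0.05. Mbl2, a mannose-binding lectin, was the 1 list gene that edgeR called between the compounds in hepatocytes (0.32, higher with saringosterol); DESeq2 and limma-voom each called 2, Mbl2 and Clu, and 9 had an unadjusted p under 0.05.

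In vehicle hepatocytes the plasma components of the list were abundant, with Clu at 8003-8210 TPM, Mbl2 at 1530-1722, Serping1, the C1 inhibitor, at 1076-1103, Vtn at 965-1044 and Cfi at 336-354. All 6 tested genes of the terminal, pore-forming components were higher in hepatocytes than in microglia and than in BMDM, and 9 of 10 soluble regulators likewise, against 73.5% and 75.2% of all genes called in either direction. Among the 10 tested genes of the receptor list, which include C3ar1, C5ar1 and the chaperone Calr, 8 were lower than in microglia and 9 lower than in BMDM. Calr was lower by less (-0.34 ± 0.0436 and -0.74 ± 0.0437). Vsig4 was higher in hepatocytes than in microglia (2.25 ± 0.847, edgeR adjusted p = 0.0176) and lower than in BMDM (-3.34 ± 0.489). Against microglia, DESeq2 called Vsig4 as well, but limma-voom did not.

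For each gene, those with the most similar pattern were sought by Pearson's r of log2 CPM after subtracting each cell type's mean, over the 18 microglial and BMDM libraries and 14799 genes; the libraries share treatments, so r is a description. Fgl2 (0.94) and Rtp4 (0.91) were most like C1qa, Cep162 (0.90) and Tmem8 (0.87) most like C1qb, and Ppt1 (0.87) and Wfdc17 (0.82) most like C1qc. Lgals9 and Ly6e (both 0.94, not ranked) were most like C3, and Frmd4b and Plod1 (both 0.98, not ranked) most like Cfp. Smarcc2 (0.94) and Nckap1l (0.92) followed C3ar1, and Aldh9a1 (0.96) and Aplp2 (0.95) followed C5ar1. The complement genes, the other C1q chains among them, were left out of this search, and only the nearest pair was kept for each gene. No gene stood among the nearest pair of more than 1 C1q chain, but lists this short cannot show whether the chains varied together.

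The 9 hepatocyte libraries and 16098 genes were searched in the same way, again with the 9 complement genes left out. Aars (0.98) and Lonp1 (0.97) were most like C3, and Cdyl and Enc1 (both 0.96, not ranked) most like C4b. Thada (0.92) and Gm13657 (0.91) were most like Cfb.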

How the data were processed

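The submitters' processing notes name bcl2fastq, STAR 2.5.1a, build GRCm38 and Subread featureCounts 1.4.6-p5. Per the labels' protocols, libraries were made from oligo-dT primed RNA. For the annotation, strand setting and multi-mapping reads, the choice is not given in the sources used here. The authors deposited whole-number counts per gene and TPM values, which were used as deposited; library and series tables held identical counts, and the repeated identical lines of 168 identifiers (of 55487) were each reduced to 1.

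The 9 genes and all lists were chosen with earlier results of these data known. All 9 are named in every comparison; of the other complement genes, up to 4 called ones with the largest change are named, except 1 that is not reported here. Counts were tested with edgeR 4.0.16 in R 4.3.3 (TMM scaling, a filter on low counts, quasi-likelihood test, Benjamini-Hochberg adjustment over all genes tested, called at an adjusted p under 0.05), on the 9 libraries of a cell type, or on all 27 for contrasts between cell types. Errors are SEs of the log2 change, from the fit; intervals span 2 SE. TPM was used for levels and ratios. The fit was tested on simulated data. Alternatives were RLE scaling, no filter, a replicate block, limma-voom (limma 3.58.1), DESeq2 1.42.0, a fit over all 27 libraries and leaving out each library; fits over 18 libraries were added after seeing the data.

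Libraries held 30295862 to 41040268 counts, so 3 counts, the limit that a count of 0 allows, equal 0.0731 to 0.099 CPM (counting error only). Replicates differed by more than sampling noise in all 27 pairs (chi-square per degree of freedom 3.77 to 37.4).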

Additional observations from a re-analysis of the deposited data

Results flagged for a closer look

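The responses of 2 genes differed between microglia and BMDM by a test of the difference itself. The log2 change of Cfp was lower in microglia than in BMDM by a difference of -0.59 with saringosterol (edgeR adjusted p = 0.0434) and of -0.57 with GW (0.0170); Cfp rose in both cell types with both compounds. Cfp started from a higher level in microglia (784 to 846 TPM with vehicle) than in BMDM (390 to 427 TPM), and with GW reached 1294 to 1386 and 1000.4 to 1088 TPM. The log2 change of C5ar1 with GW was higher in microglia by 0.54 (edgeR adjusted p = 3.52e-06), where all 3 GW libraries exceeded all vehicle libraries. In BMDM the C5ar1 values of vehicle and GW libraries overlapped. Both cell types were treated in the same medium after different culture histories; cell type and culture history cannot be told apart.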

How the results depend on the processing

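For the 9 genes, 153 results were refitted under 2349 alternatives. Of these, 2291 stayed on the same side of the threshold, 25 lost a call, 31 gained one and 2 reversed with a call. Among the 2291, 75 changed sign and were called in neither fit. Both reversals concern C3 in BMDM, over fits that left out 1 library: its saringosterol change ranged from -1.01 (without saringosterol replicate 3) to 0.50, and the saringosterol response of BMDM against hepatocytes from -0.87 (without the same library) to 0.62. That library decides these values.

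Counts of called genes moved by over 1.5 times as follows. The fit over all 27 libraries gave 690 instead of 1743 for saringosterol in microglia, 2471 instead of 1643 and 2442 instead of 1606 for saringosterol and GW in BMDM, and 57, 88 and 146 instead of 307, 178 and 316 for saringosterol, GW and their difference in hepatocytes. With the replicate block these hepatocyte counts were 782, 286 and 544; without a filter on low counts the first was 491, with DESeq2 563. Same-numbered libraries correlated above 0.1 in 0 of 9 pairs in microglia, 0 of 9 in BMDM and 1 of 9 in hepatocytes. Their median r was -0.0175 in microglia and -0.00822 in BMDM, against 0.0113 and 0.00111 for differently numbered libraries. In hepatocytes it was higher, 0.0255 against -0.0101, so whether replicate numbers pair the hepatocyte libraries was not settled. With the block, C3 in hepatocytes passed between saringosterol and GW (edgeR adjusted p = 0.00801). Differences of the saringosterol response numbered 700 without a filter and 1075 with DESeq2 instead of 382 (microglia against BMDM), 555 with DESeq2 and 615 over 18 libraries instead of 224 (microglia against hepatocytes) and 2948 with DESeq2 instead of 1918 (BMDM against hepatocytes); for GW, DESeq2 gave 1518 instead of 899 (BMDM against hepatocytes).

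Leaving out 1 library, the counts ranged from 846 to 1754 (saringosterol in BMDM), 896 to 2500 (GW in BMDM, highest without saringosterol replicate 3), 887 to 1475 (saringosterol against GW in BMDM), 86 to 803 (saringosterol in hepatocytes, without vehicle replicates 3 and 2) and 188 to 416 (saringosterol against GW in hepatocytes). For the saringosterol response they ranged from 161 to 681 (microglia against BMDM), 131 to 269 (microglia against hepatocytes) and 1220 to 2381 (BMDM against hepatocytes). The causes were not tested. Of 81 group levels, 44 moved by over 1 SD between TMM-scaled and plain CPM.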
